A study of Homo sapiens with 12 samples.

Results

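Translation factors are the soluble proteins that load the ribosome onto mRNA and carry it from codon to codon. The members described here are the genes of the eukaryotic initiation factor (eIF) and elongation factor (eEF) families, taken by symbol from the deposited gene table, with EIF2AK3 and EEF1A1 left out by the rule. The symbols also took in 6 antisense, pseudogene and readthrough rows, which are counted as members. The rule found 67 of the 25369 genes in the table. No measured value entered it, but it was chosen with earlier results of these data known. Poly(A)+ RNA was sequenced from RKO colon carcinoma, A549 lung adenocarcinoma and H460 lung large cell carcinoma cells, which are established human lines, after normoxia or 24 h of hypoxia at 1% O2. There were 12 libraries in 6 groups, with 2 replicates per group. RKO and A549 cells grew in DMEM and H460 cells in RPMI, so medium and line cannot be told apart in comparisons with H460, and each line stands for its tumour type alone. The labels name no gene change and no further agent in any group, and the comparison asks how each line changed its mRNAs in low oxygen.

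Initiation starts when eIF2, bound to GTP, brings the initiator tRNA to the small ribosomal subunit, where eIF1, eIF1A, eIF3 and eIF5 help it to find the start codon. The eIF4 proteins bind the mRNA cap and unwind the leader, eIF2B reloads eIF2 with GTP, and eIF5B joins the large subunit. The eEF1 and eEF2 factors then deliver aminoacyl-tRNAs and move the ribosome along, and protein synthesis is known to be held back in hypoxic cells through phosphorylation of eIF2 alpha and through repressors that bind eIF4E. The values below are mRNA levels, not protein levels or translation rates, and a bulk library cannot tell fewer cells from less RNA per cell.

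In RKO cells 19 of 55 tested members fell in hypoxia and 0 rose, in H460 cells 15 of 58 rose and 10 fell, and in A549 cells 0 of 57 passed the test in either direction. Of the 15 that rose in H460, 2 do not encode factors, the pseudogene EEF1DP3 and the antisense RNA EIF1B-AS1. A gene was tested where it had over 0.5 CPM (read count scaled to the library total) in at least 2 libraries of a line, and a call needed an edgeR adjusted p under 0.1 together with a fold change over 1.5. The share of members called lower in RKO was 34.5%, against 15.1% of all genes tested, and the background share called higher there was 18.8%. H460 members were called higher in 25.9% and lower in 17.2% of cases, against background shares of 24.6% and 27.3%. In A549 the background was 2.22% higher and 0.456% lower, so few calls were made on any genes in that line. In the order RKO, A549 and H460, the members had a median log2 fold change of -0.38, -0.11 and 0.03, while that of all tested genes was 0.01, -0.01 and -0.04. In all, 34 members were called in at least 1 line, and the same count over all genes was not made.

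Each count of 0 has limits. At an unadjusted edgeR p under 0.05 there were 29 of 55 members in RKO, beside 6093 of all 12817 genes tested. Of these 29 members 2, EIF1B and EIF4E3, lay above 0. In A549 there were 5 of 57 members, beside 2363 of 14251 genes. DESeq2 and limma on log2 RPKM each called 0 members higher in RKO. In A549 it called EIF4E3 higher and no member lower, and limma called none in that line. Without A549 hypoxia replicate 1, edgeR called 2 members higher (EEF1A2 and EIF4A2) and 4 lower (EIF2B3, EIF2S1, EIF2S2 and EIF5), and without RKO hypoxia replicate 2 it called 3 members higher (EEF2, EIF1B and EIF4E3). Plain library size scaling in place of TMM moved H460 log2 fold changes by a median of -0.35 over all genes, and the H460 split then became 6 higher and 19 lower. The 6 that were still called higher were EEF1DP3, EEF2, EIF1, EIF1B-AS1, EIF2A and EIF4B. In H460 12 of 58 members changed sign, but no called member did. All H460 log2 fold changes below are therefore relative to the TMM reference.

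**Figure D1:**
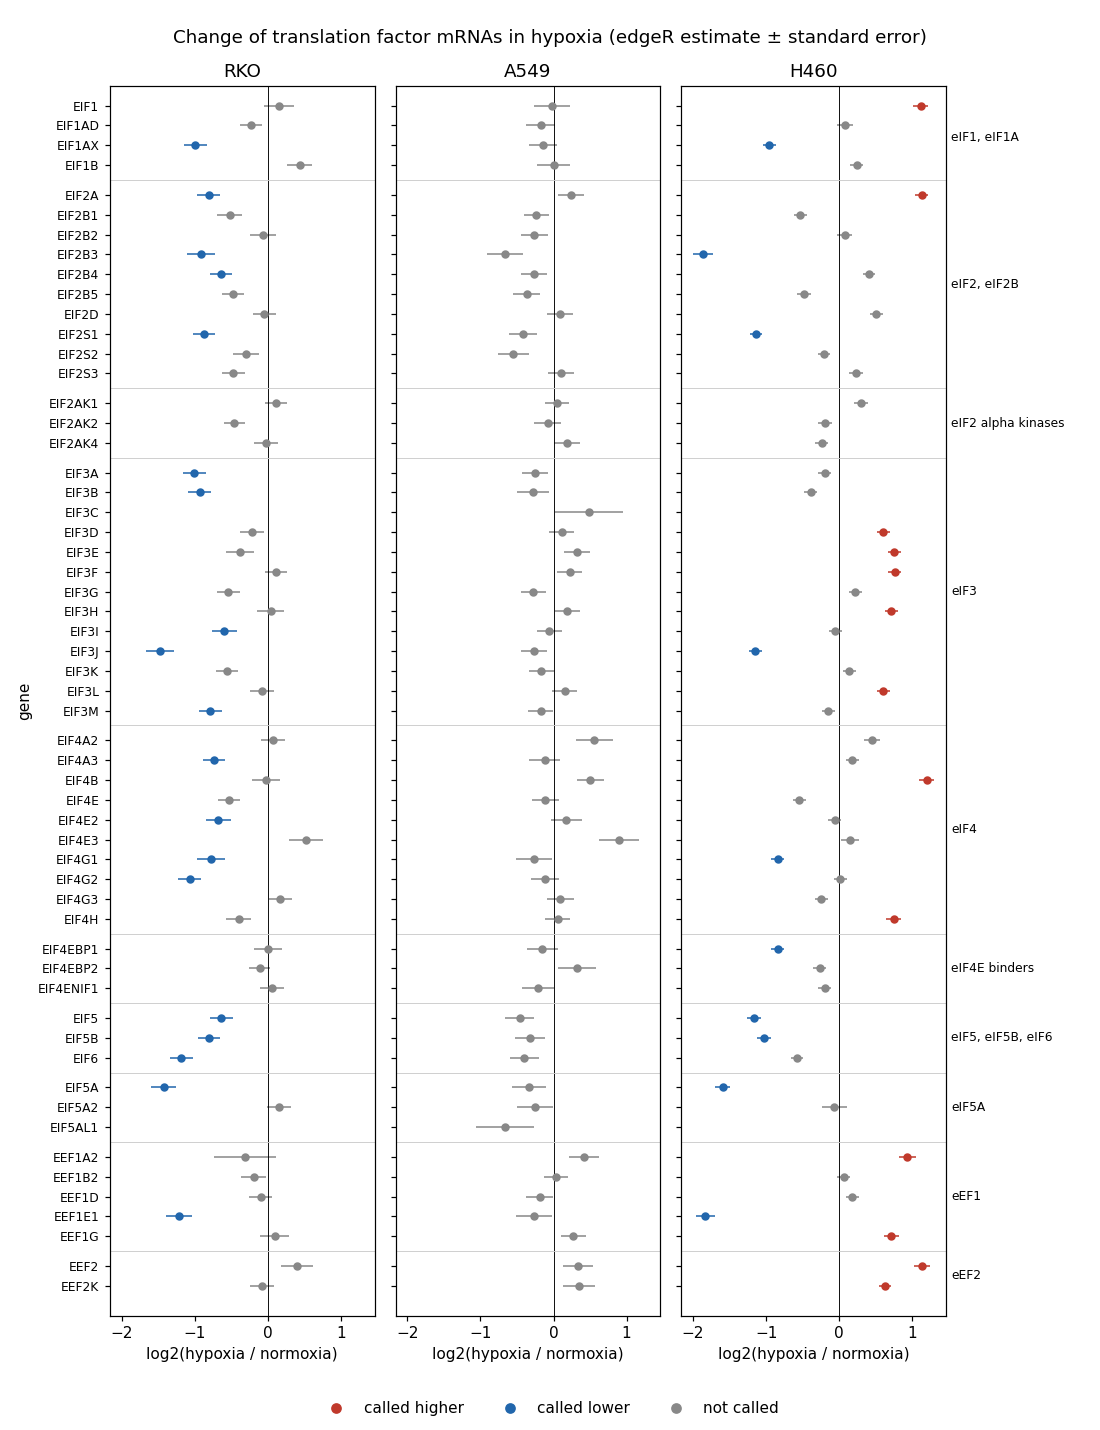
Log2 fold change (hypoxia over normoxia, x axis) with its standard error for each translation factor tested in a line, in rows grouped by role, with 1 panel per line; the antisense and pseudogene rows and EIF1AY are not drawn. The 19 blue points in RKO all lie left of 0, A549 has no coloured point, and H460 has points called in both directions.

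The 3 lowest called changes in RKO were in EIF3J, EIF5A and EEF1E1, and those in H460 in EIF2B3, EEF1E1 and EIF5A. EIF5A (chr17:7210317-7215782, + strand, GRCh37, as are all gene positions here) encodes the hypusine-bearing factor that helps ribosomes past difficult peptide bonds. Its scaled level in the RKO normoxia libraries was 1274 and 1161 CPM, and in hypoxia it was 429 and 477 CPM. In H460 it was 552 and 481 CPM in normoxia and 164 and 178 CPM in hypoxia. Within both lines every hypoxia library was below every normoxia library. The log2 fold change was -1.43 ± 0.17 (standard error) in RKO, with an adjusted p of 0.000226, and -1.60 ± 0.10 in H460, with an adjusted p of 7.25e-08. A549 had 910 and 724 CPM in normoxia and 781 and 514 CPM in hypoxia, and these ranges overlapped.

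EIF3J (chr15:44829265-44855001, + strand) encodes the loosely bound eIF3 subunit that acts at the mRNA entry channel of the ribosome. RKO libraries had 103 and 98.8 CPM in normoxia and 29.4 and 43.0 CPM in hypoxia. H460 libraries had 146 and 142 CPM, then 63.2 and 66.4 CPM. The falls of 1.48 ± 0.19 and 1.15 ± 0.09 on the log2 scale had adjusted p values of 0.00037 and 2.44e-07, with no overlap between conditions in either line. A549 had 95.7 and 93.8 CPM in normoxia and 88.0 and 69.5 CPM in hypoxia, which did not overlap but gave an adjusted p of 0.499.

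EEF1E1 (chr6:8073592-8102828, - strand) encodes a small protein of the multi-tRNA synthetase complex that resembles part of eEF1. In RKO its libraries had 39.3 and 36.1 CPM in normoxia and 15.03 and 17.5 CPM in hypoxia. In H460 they had 18.9 and 19.8 CPM in normoxia and 5.40 and 5.48 CPM in hypoxia. The hypoxia libraries were below all normoxia libraries in both lines, by 1.21 ± 0.18 and 1.83 ± 0.13 on the log2 scale (adjusted p 0.000677 and 1.77e-07). In A549, with 14.8 and 11.8 CPM against 12.1 and 9.97 CPM, the conditions overlapped. A readthrough row that spans EEF1E1 held 0 to 2 reads per library.

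EIF2B3 (chr1:45316193-45452394, - strand) encodes the gamma subunit of eIF2B, part of the catalytic module that exchanges GDP for GTP on eIF2. Its level in H460 was 22.7 and 23.6 CPM in normoxia and 5.86 and 6.82 CPM in hypoxia, a log2 fold change of -1.86 ± 0.13 with an adjusted p of 1.6e-07. RKO had 21.4 and 20.8 CPM, then 11.0 and 11.4 CPM, a log2 fold change of -0.91 ± 0.19 with an adjusted p of 0.00436. In A549 the libraries had 26.5 and 22.0 CPM in normoxia and 18.1 and 12.5 CPM in hypoxia. All 3 lines had both hypoxia libraries below both normoxia libraries, but in A549 the log2 fold change of -0.67 ± 0.25 did not pass (adjusted p 0.232).

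**Figure D2:**
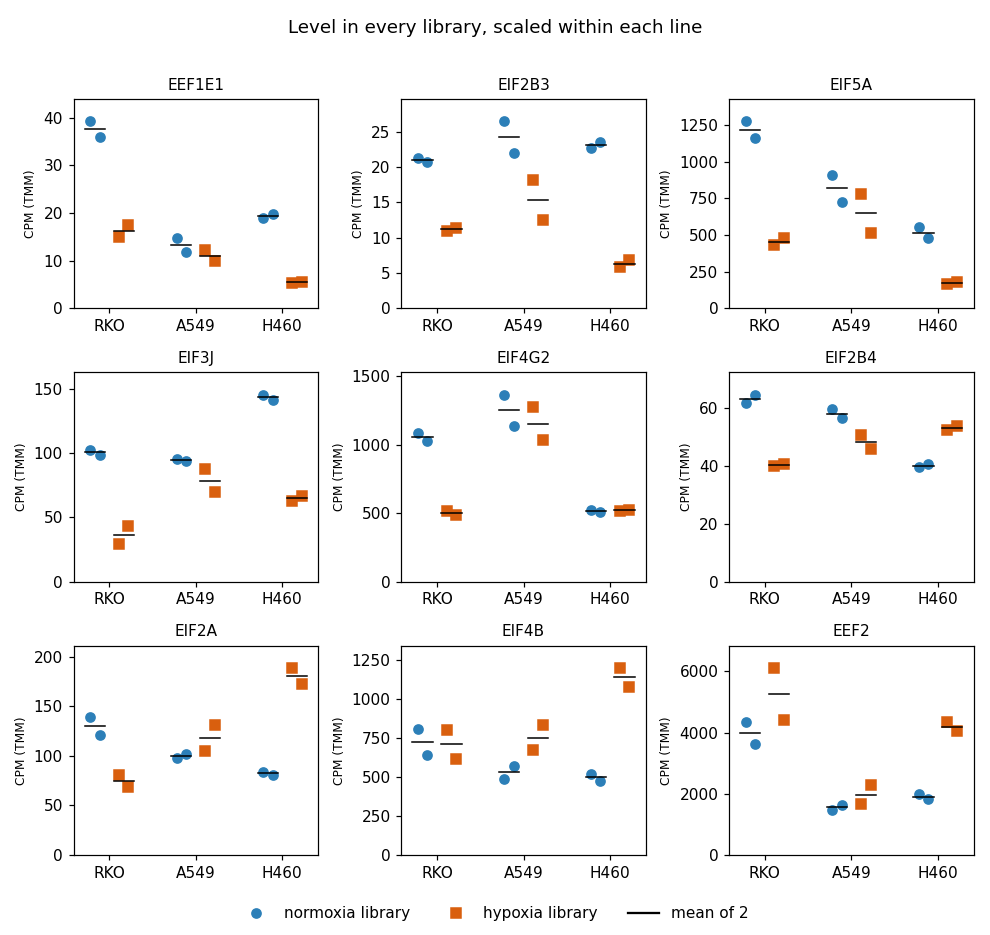
Scaled level (CPM, TMM within each line, y axis from 0) of 9 genes in every library, with normoxia as circles, hypoxia as squares and a bar at the mean of 2; values can be compared within a line, not between lines. EIF5A, EIF3J, EEF1E1 and EIF2B3 dropped in RKO and H460, whereas EIF2A dropped in RKO and rose in H460.

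Those 4 genes belonged to a set of 9 that fell in both RKO and H460, namely EEF1E1, EIF1AX, EIF2B3, EIF2S1, EIF3J, EIF4G1, EIF5, EIF5A and EIF5B. The 9 genes were 47.4% of the 19 called lower in RKO and 90.0% of the 10 called lower in H460. Over all genes, 1115 were called lower in both lines, 57.8% of those lower in RKO and 29.1% of those lower in H460. EIF4EBP1 was the other gene that fell in H460. In A549 all 9 estimates were below 0, between -0.67 and -0.14, and none was called. EIF5 in RKO (-0.63 ± 0.15) was close to the fold limit and lost its call with library size scaling, in the fit of all 12 libraries, with limma and without RKO hypoxia replicate 1.

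To show where these genes start, the 250 bases before the RefSeq transcription start are printed for 3 genes that fell in both lines, for EIF2A, which moved in opposite directions, and for EIF4B and EEF2, which rose in H460. Coordinates of promoters are on GRCh38.p14, the build of the RefSeq table, and not on the GRCh37 build of the counts. Capitals mark matches to the E-box CACGTG, a motif bound by MYC and related factors, and to the core of the hypoxia response element, ACGTG or GCGTG, on either strand, so that CACGT and CACGC also count. Every E-box holds 2 overlapping matches to the second motif.
EIF2B3 (chr1:44986596-44986845, - strand): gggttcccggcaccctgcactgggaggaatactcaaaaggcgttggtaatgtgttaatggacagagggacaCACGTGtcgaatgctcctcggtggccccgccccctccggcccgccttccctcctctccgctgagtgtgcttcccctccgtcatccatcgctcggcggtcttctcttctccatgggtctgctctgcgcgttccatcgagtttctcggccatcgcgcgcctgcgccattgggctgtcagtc
EEF1E1 (chr6:8102549-8102798, - strand): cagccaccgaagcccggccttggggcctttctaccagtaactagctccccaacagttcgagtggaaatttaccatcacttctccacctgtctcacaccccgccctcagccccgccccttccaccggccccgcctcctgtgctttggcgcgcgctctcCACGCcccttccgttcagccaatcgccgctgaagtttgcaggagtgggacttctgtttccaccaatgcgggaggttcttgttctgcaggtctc
EIF3J (chr15:44536897-44537146, + strand): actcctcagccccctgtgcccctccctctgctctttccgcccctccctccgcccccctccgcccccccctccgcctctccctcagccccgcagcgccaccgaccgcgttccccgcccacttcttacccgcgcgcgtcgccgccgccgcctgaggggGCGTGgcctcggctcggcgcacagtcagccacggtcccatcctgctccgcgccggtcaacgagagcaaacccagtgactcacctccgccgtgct
EIF2A (chr3:150546537-150546786, + strand): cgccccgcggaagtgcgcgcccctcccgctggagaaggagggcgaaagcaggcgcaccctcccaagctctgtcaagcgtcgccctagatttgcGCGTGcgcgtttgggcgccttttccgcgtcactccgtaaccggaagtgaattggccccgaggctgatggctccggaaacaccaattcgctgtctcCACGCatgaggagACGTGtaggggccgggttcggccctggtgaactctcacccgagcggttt
EIF4B (chr12:53006206-53006455, + strand): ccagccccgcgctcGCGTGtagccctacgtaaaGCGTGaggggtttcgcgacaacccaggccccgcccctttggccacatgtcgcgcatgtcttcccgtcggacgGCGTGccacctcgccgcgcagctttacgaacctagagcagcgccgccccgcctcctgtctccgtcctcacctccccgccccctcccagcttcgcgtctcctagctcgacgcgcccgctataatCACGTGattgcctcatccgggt
EEF2 (chr19:3985464-3985713, - strand): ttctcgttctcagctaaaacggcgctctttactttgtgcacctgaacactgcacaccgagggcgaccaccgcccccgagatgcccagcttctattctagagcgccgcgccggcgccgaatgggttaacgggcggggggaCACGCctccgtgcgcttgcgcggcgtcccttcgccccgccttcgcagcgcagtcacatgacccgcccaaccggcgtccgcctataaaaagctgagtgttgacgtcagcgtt

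An E-box lay in the promoters of EIF2B3, 179 bases before the start, and of EIF4B, 22 bases before it, and in none of the other 4. Of the 67 members, 53 matched the RefSeq table, with 69 promoters. The E-box was in 18.8% of these 69 and in 6.34% of all 35116 promoters of this length. The hypoxia response core was in 69.6% and 43.2%. By gene, an E-box was found in at least 1 promoter of 24.5% of the 53 members and of 7.73% of the 27305 genes in the table. Among the members it was present in 2 of 9 genes that fell in both lines, in 1 of 8 that fell in RKO alone, in 4 of 9 that rose in H460 alone, and in 6 of 26 called in neither line. The last class also holds members not tested in these lines, such as EIF4A1 and EIF4EBP3, the latter with an E-box. These matches describe letters in a short window, and base composition differs between promoters.

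Among the scanning factors, 4 of the 5 genes were tested in each line, with EIF1AY added in H460 alone. EIF1AX, which encodes eIF1A, a factor at the decoding site, fell in RKO by 1.00 ± 0.16 on the log2 scale and in H460 by 0.96 ± 0.09, and both calls were lost only where the fold limit was raised to 2. EIF1, whose product guards start codon choice, rose in H460 from 773 and 715 CPM to 1716 and 1506 CPM. That rise of 1.11 ± 0.11 on the log2 scale (adjusted p 1.89e-06) was free of overlap, whereas the conditions overlapped in RKO and in A549. EIF1B, a close relative of EIF1, had a log2 fold change of 0.43 ± 0.17 in RKO and 0.24 ± 0.09 in H460, under the fold limit in both. EIF1AD, a protein with an eIF1A-like domain, was not called in any line.

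Of the 10 genes of eIF2, eIF2B and related tRNA-binding factors, 4 fell in RKO (EIF2A, EIF2B3, EIF2B4 and EIF2S1), and in H460 EIF2B3 and EIF2S1 fell while EIF2A rose. EIF2S1 encodes eIF2 alpha, the subunit that stress kinases phosphorylate. It had 210 and 195 CPM in RKO normoxia against 106 and 116 CPM in hypoxia, and 124 and 127 CPM against 56.2 and 58.2 CPM in H460. The falls were 0.87 ± 0.15 and 1.14 ± 0.08 on the log2 scale (adjusted p 0.00151 and 2.48e-07). The beta and gamma subunits did not pass: EIF2S2 had log2 fold changes of -0.30, -0.55 and -0.21, and EIF2S3 of -0.47, 0.10 and 0.23, in RKO, A549 and H460. The eIF2B subunits other than EIF2B3 were not called in H460, where EIF2B1 was at -0.53 and EIF2B5 at -0.48 with adjusted p under 0.1 but a fold under the limit.

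EIF2A (chr3:150264573-150303803, + strand), which encodes a monomeric initiator tRNA-binding protein distinct from eIF2 alpha, was the gene called in opposite directions. RKO had 139 and 121 CPM in normoxia and 80.4 and 68.2 CPM in hypoxia. H460 had 83.7 and 81.1 CPM in normoxia and 189 and 172 CPM in hypoxia. Neither line had overlapping conditions, and the log2 fold changes were -0.81 ± 0.16 (adjusted p 0.00294) and 1.13 ± 0.09 (adjusted p 3.88e-07). The A549 libraries, at 97.8 and 102 CPM and then 105 and 131 CPM, gave 0.24 ± 0.18 (adjusted p 0.535).

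EIF2B4 (chr2:27587218-27593324, - strand), the delta subunit of the regulatory part of eIF2B, fell in RKO from 61.7 and 64.6 CPM to 40.0 and 40.7 CPM, by 0.64 ± 0.15 on the log2 scale (adjusted p 0.00783). The H460 libraries went the other way, from 39.5 and 40.6 CPM to 52.5 and 53.6 CPM, a log2 fold change of 0.41 ± 0.09 (adjusted p 0.00134) that stayed under the fold limit. A549 had 59.5 and 56.4 CPM in normoxia and 50.6 and 45.9 CPM in hypoxia. The RKO call was lost with library size scaling, in the fit of all 12 libraries, with limma and at a fold limit of 2. The 3 kinases of eIF2 alpha left by the rule (EIF2AK1, the heme-regulated kinase, EIF2AK2, the double-stranded RNA kinase, and EIF2AK4, the amino acid sensor) had 0 calls in any line, and their log2 fold changes ran from -0.46 to 0.30. For EIF2AK2 in RKO and all 3 kinases in H460 the adjusted edgeR p was under 0.1, as it was for 28 of 55 and 47 of 58 members. The unadjusted edgeR p was under 0.05 for 1 kinase in RKO and 2 in H460, beside 6093 of 12817 and 10546 of 14080 genes.

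The eIF3 complex, the largest initiation factor and a scaffold on the small subunit, had mostly different subunits called in RKO and H460. Of its 14 genes 12 were tested in RKO and H460, where 5 fell in RKO (EIF3A, EIF3B, EIF3I, EIF3J and EIF3M) and 5 rose in H460 (EIF3D, EIF3E, EIF3F, EIF3H and EIF3L), with EIF3J alone lower in H460. No subunit was both lower in RKO and higher in H460. EIF3A, the largest subunit, fell in RKO from 753 and 716 CPM to 350 and 382 CPM (a fall of 1.00 ± 0.16 on the log2 scale). In H460 it had 581 and 578 CPM and then 512 and 499 CPM (-0.20 ± 0.09). EIF3E, a subunit of the eIF3 octamer, had 281 and 268 CPM in H460 normoxia and 478 and 448 CPM in hypoxia, a rise of 0.75 ± 0.09. It had 1020.0 and 792 CPM in RKO normoxia and 768 and 623 CPM in hypoxia, a log2 fold change of -0.38 ± 0.19 that did not pass. EIF3I in RKO (-0.59) and EIF3D and EIF3L in H460 (both 0.60) sat at the fold limit, and each lost its call in at least 2 of the 4 fits that left out 1 library of that line. With library size scaling all 5 H460 subunits lost their calls.

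Among the 10 tested eIF4 genes, the cap-binding and helicase group, EIF4A3, EIF4E2, EIF4G1 and EIF4G2 fell in RKO, and in H460 EIF4B and EIF4H rose while EIF4G1 fell. EIF4B (chr12:53400061-53435993, + strand), a cofactor of the eIF4A helicase, had 519 and 476 CPM in H460 normoxia and 1199 and 1079 CPM in hypoxia, a rise of 1.19 ± 0.10 on the log2 scale (adjusted p 7.71e-07). RKO had 807 and 638 CPM and then 800 and 617 CPM, with overlapping conditions. In A549 the values were 489 and 572 CPM in normoxia and 674 and 832 CPM in hypoxia, which did not overlap, but the log2 fold change of 0.51 ± 0.19 did not pass (adjusted p 0.239). EIF4H, a relative of EIF4B, rose in H460 by 0.74 ± 0.11. Its call was lost with library size scaling, and that of EIF4B was not.

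EIF4G2 (chr11:10818592-10830582, - strand), an eIF4G relative that lacks the eIF4E-binding part, fell in RKO from 1086 and 1030 CPM to 517 and 490 CPM. The log2 fold change of -1.07 ± 0.16 had an adjusted p of 0.000733. The other lines held 1366 and 1139 CPM before and 1277 and 1032 CPM after in A549, and 525 and 507 CPM before and 517 and 522 CPM after in H460, both with overlap. EIF4G1, the main scaffold, had 595 and 804 CPM in RKO normoxia against 361 and 453 CPM in hypoxia, and 388 and 367 CPM against 218 and 204 CPM in H460. The RKO call of -0.78 ± 0.19 was lost without RKO normoxia replicate 2.

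EIF4E, the cap-binding protein itself, had log2 fold changes of -0.53 in RKO and -0.55 in H460 that stayed under the fold limit, with adjusted p of 0.0181 and 0.000139. EIF4E3, a divergent cap-binding relative, had the highest member estimate in A549, 0.89 ± 0.27, with 4.13 and 3.90 CPM in normoxia and 6.82 and 8.10 CPM in hypoxia. It did not pass in edgeR (adjusted p 0.17). The repressor EIF4EBP1, which competes with eIF4G for eIF4E, fell in H460 from 99.3 and 93.3 CPM to 55.4 and 52.3 CPM (-0.84 ± 0.09, adjusted p 4.11e-06) and had overlapping conditions in RKO and A549. EIF4EBP2 and EIF4ENIF1, the other binders tested, had 0 calls in edgeR in every line, with none of the 3 binders under an unadjusted p of 0.05 in RKO and A549 and 2 of 3 in H460.

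The joining factors fell in RKO and, apart from EIF6, in H460. EIF5, which triggers GTP hydrolysis on eIF2, EIF5B, the GTPase of subunit joining, and EIF6, which keeps free large subunits apart, all fell in RKO, by 0.63, 0.80 and 1.18 on the log2 scale. In H460 EIF5 fell by 1.17 ± 0.09 and EIF5B by 1.03 ± 0.09, while EIF6 at -0.58 lay just under the fold limit (adjusted p 7.47e-05). A549 estimates were -0.46, -0.32 and -0.40, and none passed. EIF6 libraries in RKO had 211 and 180 CPM in normoxia and 87.0 and 85.0 CPM in hypoxia. EIF5A2, the tissue-restricted relative of EIF5A, had log2 fold changes of 0.16 in RKO, -0.25 in A549 and -0.07 in H460, none called.

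**Figure D3:**
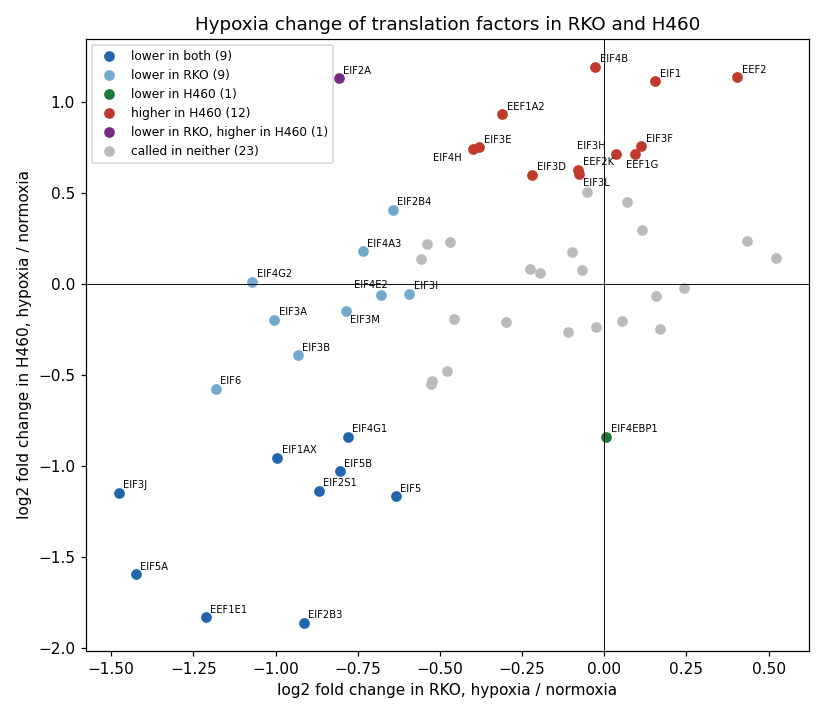
Log2 fold change (hypoxia over normoxia) of the translation factors tested in both lines in RKO (x axis) against H460 (y axis), coloured by calls, with called genes named and the number of genes per class in the legend. The 9 genes that fell in both sit at the lower left, 12 genes that rose in H460 without a call in RKO at the top, and EIF2A alone at the upper left in the class with opposite calls.

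Elongation factors gave most of their calls in H460. Of all genes, 24.6% were called higher and 27.3% lower in that line, against 18.8% and 15.1% in RKO. EEF2 (chr19:3976053-3985461, - strand), the translocase, had 1998 and 1819 CPM in H460 normoxia and 4342 and 4043 CPM in hypoxia, a rise of 1.14 ± 0.11 on the log2 scale (adjusted p 2.15e-06). RKO had 4339 and 3619 CPM and then 6115 and 4412 CPM, and A549 had 1480 and 1642 CPM and then 1654 and 2289 CPM. With TMM scaling, hypoxia libraries were above normoxia libraries in all 3 lines, but the log2 fold changes of 0.40 ± 0.22 and 0.34 ± 0.20 did not pass in RKO and A549. As a share of counted reads the A549 conditions overlapped, with 0.151 and 0.171% in normoxia and 0.162 and 0.219% in hypoxia. EEF2K, the kinase that inhibits eEF2, rose in H460 from 66.3 and 64.6 CPM to 102 and 100 CPM (0.63 ± 0.08), close to the fold limit, and lost its call without H460 normoxia replicate 2.

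Of the 5 eEF1 genes, EEF1A2 and EEF1G rose in H460 and EEF1E1 fell in RKO and H460. EEF1A2, the eEF1A form of muscle and nerve, had 355 and 294 CPM in H460 normoxia and 667 and 573 CPM in hypoxia, a rise of 0.93 ± 0.12. EEF1G, a structural subunit of the exchange factor eEF1B, rose by 0.71 ± 0.10. Its catalytic partners EEF1B2 and EEF1D had log2 fold changes of 0.06 and 0.18 in H460 and were not called in any line. The calls of EEF1A2, EEF1G and EEF2K were lost with library size scaling, and that of EEF2 was not.

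Whether the hypoxia change differed between lines was tested as the interaction of line and oxygen in 1 edgeR fit of all 12 libraries. It passed an adjusted p of 0.1 for 33 of 61 members (54.1%), against 48.8% of all genes. By pairs, RKO changed differently from A549 in 11 members (18.0%, background 14.6%) and from H460 in 29 (47.5%, background 37.6%), while A549 and H460 differed in 18 (29.5%, background 36.0%). Leaving out H460 hypoxia replicate 1 gave 19 members and leaving out H460 normoxia replicate 2 gave 20. The smallest adjusted p values were 0.000116 for EIF2A, 0.0014 for EEF1E1, 0.00218 for EIF2B4, 0.00315 for EIF4G2 and 0.0038 for EIF3J.

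For EIF2A the change in RKO was lower than in H460 by 1.89 ± 0.21 on the log2 scale, and all 3 pairs of lines differed, with adjusted p of 0.0118 for RKO and A549, 4.83e-05 for RKO and H460 and 0.0068 for A549 and H460. EIF2B4 in RKO lay 1.01 ± 0.18 below H460 and EIF4G2 1.04 ± 0.21 below it. EIF3J and EIF5A separated A549 from both other lines. For EIF3J the change in RKO minus that in A549 was -1.17 ± 0.23 and that in A549 minus that in H460 was 0.88 ± 0.23. EIF5A had -1.04 ± 0.26 and 1.26 ± 0.26 for the same pairs, and its RKO and H460 changes did not pass the test of a difference (0.21 ± 0.26, adjusted p 0.585). EEF1E1 differed in all 3 pairs. Of the members tested in both lines, 19 had estimates below 0 in RKO and above 0 in H460, and 5 had the reverse. The same count over all genes was not made. With library size scaling 6 of 55 RKO and 12 of 58 H460 estimates changed sign, so these counts depend on the TMM reference.

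The lines also differed before hypoxia. In normoxia 23 of 61 members (37.7%, background 60.2%) differed by over 1.5-fold when RKO was set against A549. For RKO against H460 it was 31 members (50.8%, background 61.9%), and for A549 against H460 it was 23 (37.7%, background 52.1%). RKO had the higher level in 18 of the 23 differences from A549 and in 19 of the 31 from H460, and H460 had the higher level in 16 of the 23 from A549. The widest difference among members tested in all 3 lines was in EEF1A2, with 0.389 ± 0.0997 RPKM (read count scaled by gene length and library total, mean ± SD, n = 2) in RKO, 77.7 ± 3.69 in A549 and 183 ± 21.6 in H460. RKO minus A549 was -7.65 ± 0.26 and RKO minus H460 was -8.90 ± 0.27 on the log2 scale, and the RKO libraries held 22 to 34 EEF1A2 reads.

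EIF4E3 stood at 3.86 ± 0.938 RPKM in RKO, 2.21 ± 0.0442 in H460 and 0.616 ± 0.015 in A549, and all 3 pairs differed (adjusted p 0.0063 between RKO and H460). EIF4E, EIF5A2, EIF3E and EIF3H were higher in RKO than in both lung lines. EIF3H had 426 ± 69.4 RPKM in RKO, 162 ± 4.79 in A549 and 129 ± 2.27 in H460, and EIF3E had 582 ± 89.7, 242 ± 2.36 and 206 ± 3.84. For EIF3E, EIF3H, EIF4E and EIF5A2 the difference between A549 and H460 did not pass the test. EIF1 was lowest in RKO, at 238 ± 13.3 RPKM against 487 ± 160.3 in A549 and 634 ± 25.6 in H460, where A549 and H460 did not pass (adjusted p 0.16).

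**Figure D4:**
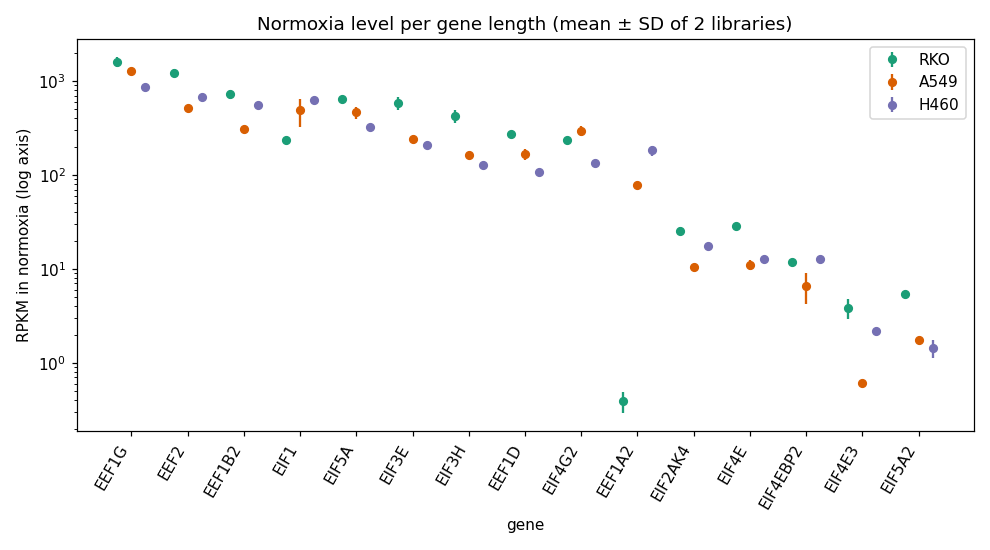
Normoxia level per gene length (RPKM on a log axis, mean ± SD of 2 libraries) of 15 translation factors in the 3 lines; error bars smaller than the point are hidden. EEF1G and EEF2 lead in every line, and EEF1A2 lies near 0.389 RPKM in RKO against 77.7 in A549 and 183 in H460.

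Per gene length, EEF1G and EEF2 had the highest normoxia levels among tested members in all 3 lines. EEF1G had 1612 ± 202.6 RPKM in RKO, 1281 ± 26.97 in A549 and 870 ± 12.6 in H460, and EEF2 had 1222 ± 126.6, 511 ± 45.3 and 683 ± 34.9. In H460 hypoxia EEF2 ranked first, with 1174 ± 23.6 RPKM against 1116 ± 14.0 for EEF1G. EIF5A moved from rank 4 to rank 8 in RKO and from rank 5 to rank 23 in H460, with 321 ± 26.3 RPKM in H460 normoxia and 83.2 ± 7.19 in hypoxia, and kept rank 4 in A549. RPKM carries no TMM scaling, so its differences between conditions are not those of the log2 fold changes above. The members together took 1.45 to 2.19% of the counted reads of a library.

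Not every member could be measured. Of the 67, 55 were tested in all 3 lines, 5 in 1 or 2 lines and 7 in none (EIF3CL, EIF4A1, EIF4E1B, EIF4EBP3, EEF1E1-BLOC1S5, EIF1AX-AS1 and EIF3IP1). EIF4A1, the main initiation helicase, held 0 reads in all 12 libraries, while the readthrough row SENP3-EIF4A1 that covers the same exons held 3 to 62. EIF3C, a core eIF3 subunit, held 0 to 21 reads beside the overlapping and near-identical EIF3CL with 0. These levels are therefore uncertain, as are those of EIF4EBP3 and of EIF5AL1, a copy of EIF5A. Of the 6 antisense, pseudogene and readthrough rows, EEF1DP3 and EIF1B-AS1 rose in H460. EEF1DP3, a pseudogene of EEF1D, had 0.850 and 0.810 CPM in normoxia and 3.18 and 2.61 CPM in hypoxia (1.79 ± 0.27). EIF1B-AS1 had 0.589 and 0.648 CPM and then 1.22 and 1.40 CPM, and both are low levels.

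Other genes of translation give the setting. Of 27 further cytosolic translation genes (poly(A)-binding proteins and their partners, release and recycling factors, hypusine enzymes and eIF2 phosphatase subunits among them), 2 rose and 9 fell in RKO, 0 were called in A549 and 9 rose and 3 fell in H460. In RKO this was 7.41% higher and 33.3% lower, beside 18.8% and 15.1% of all genes, and in H460 33.3% higher and 11.1% lower, beside 24.6% and 27.3%. In A549 8 of the 27 had an unadjusted edgeR p under 0.05, beside 2363 of all 14251 genes tested. PAIP2B, a repressor that binds the poly(A)-binding protein, rose in RKO (1.62) and H460 (2.05) and had a log2 fold change of 0.90 in A549. PDCD4, an inhibitor of eIF4A, rose in RKO (0.83), and PPP1R15A, which directs dephosphorylation of eIF2 alpha, rose in H460 (1.80). ETF1, the release factor eRF1, and ABCE1, the recycling ATPase, had the lowest values in RKO (-1.19 and -1.10), and ABCE1 and LARP1, a binder of mRNAs for the translation machinery, in H460 (-0.95 and -0.89). In A549 PAIP2B and PDCD4 were highest (0.90 and 0.67) and DOHH and PPP1R15A lowest (-0.62 and -0.77).

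Of 9 mitochondrial translation factors, 7 fell and 0 rose in RKO, 0 were called in A549 and 3 fell and 1 rose in H460. The shares called lower were 77.8% in RKO and 33.3% in H460, beside 15.1% and 27.3% of all genes. At an unadjusted edgeR p under 0.05 there were 7 in RKO and 1 in A549, beside 6093 of 12817 and 2363 of 14251 genes. TSFM, the exchange factor of mitochondrial elongation, fell by 0.98 in RKO and 1.45 in H460, and GFM1, a mitochondrial translocase, by 0.97 and 1.34. MTIF3, an initiation factor of mitochondria, rose in H460 by 1.11, and GFM2, which recycles mitochondrial ribosomes, had -0.25 there. GFM2 and MTIF3 were highest in RKO (0.04 and -0.02) and in A549 (0.05 and 0.25), where GFM1 and MRRF, another recycling factor, were lowest (-0.60 and -0.39).

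The libraries held 27350424 to 41757584 counted reads, and replicates of a group differed by more than counting error. The hypoxia-induced genes CA9, NDRG1, PDK1, SLC2A1 and VEGFA were called higher in all 3 lines. The median standard error over all genes was 0.184 for RKO, 0.223 for A549 and 0.114 for H460. In normoxia 1 of 6 colon markers was over 0.5 CPM in RKO (CDX2), against 2 in A549 (CDH17 and LGALS4) and 0 in H460, and of 6 lung markers NAPSA alone was over it in A549 and H460. Of 5 epithelial markers 4, 5 and 3 were over it in RKO, A549 and H460. The summed level of 8 leukocyte, endothelial and fibroblast markers was 0.578 CPM in RKO normoxia and 2.49 in hypoxia, 67.0 and 283 in A549, nearly all of it COL1A1, and 32.5 and 35.1 in H460, from COL1A1, COL3A1 and PDGFRB. The part of these genes in the changes above was not tested.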

How the data were processed

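The members and all gene lists were chosen with earlier results of these data known. Per the labels, the authors aligned strand-specific single-end reads to GRCh37/hg19 with TopHat2 2.0.13 and Bowtie2 2.2.3.0 and counted exon reads with HTSeq 0.6.1, so reads shared by overlapping genes or close copies could be lost. The authors deposited read counts for each gene and library, which were the input of all main fits, and RPKM values computed from those counts and gene length, used for levels between genes and as an alternative.

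Quasi-likelihood fits in edgeR 4.0.16 (R 4.3.3) with TMM scaling used the 4 libraries of a line and covered all genes above 0.5 CPM in at least 2 libraries. Genes with a Benjamini-Hochberg adjusted p under 0.1 and a fold change over 1.5 were called. A fit of all 12 libraries gave the interaction of line and oxygen (adjusted p under 0.1) and the differences between lines in normoxia, and ± is the standard error unless SD is named. Adjusted p values are edgeR values over all genes. Alternatives were DESeq2 1.42.0, RLE size factors, library size scaling, other filters and fold limits, limma 3.58.1 on log2(RPKM + 0.1) and log2(RPKM + 1), a replicate block and each library left out. The steps were tested on simulated data.

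Values in every library were given for the 3 highest and 3 lowest called members per line with a mean of at least 100 counts and for the 5 members with the smallest interaction p, and other members shown by library were chosen after their values were seen. For the other gene lists the 2 highest and 2 lowest genes per line are named. Counted reads per library were 27350424 to 41757584. The labels call replicates independent, but with 2 per group p-values rest on the spread of pairs. Levels of EIF1AY are not reported here.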

Additional observations from a re-analysis of the deposited data

Results flagged for a closer look

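The test of whether the hypoxia change differed between lines picked out 33 members (interaction adjusted p under 0.1), and the widest difference between a pair of lines is given for each on the log2 scale, with all 12 libraries in 1 edgeR fit. The change in RKO minus that in H460 was -1.89 for EIF2A, -1.20 for EEF1A2, -1.18 for EIF4B, -1.10 for EIF4H, -1.09 for EIF3E, -1.04 for EIF4G2 and -1.01 for EIF2B4. Smaller differences in the same direction were -0.87 for EIF4A3, -0.77 for EIF3D, -0.76 for EIF3A, -0.72 for EIF3G, -0.65 for EIF2S3 and for EIF3K, -0.63 for EIF3H and for EIF3L, -0.60 for EIF3F, -0.59 for EIF3M, -0.51 for EIF2D and -0.49 for EIF3I. EIF4EBP1 had the opposite sign, 0.89.

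The change in A549 minus that in H460 was 1.57 for EEF1E1, 1.26 for EIF5A, 1.20 for EIF2B3, 0.81 for EIF1AX, 0.72 for EIF2S1, 0.71 for EIF5B and 0.70 for EIF5, and it was -1.14 for EIF1 and -0.80 for EEF2. RKO minus A549 was -1.17 for EIF3J, -0.81 for EIF4E2, -0.73 for EIF6 and -0.60 for EIF3B, whose own pair test did not pass (adjusted p 0.125). Of all genes 48.8% passed the same test.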

How the results depend on the processing

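The spread between replicates was largest in A549. With no minimum fold the calls became 1 higher and 27 lower in RKO, 24 higher and 23 lower in H460, and in normoxia 37 members differing for RKO against A549, 48 for RKO against H460 and 37 for A549 against H460. At a fold limit of 2 they were 0 higher and 6 lower in RKO, 6 higher and 7 lower in H460, and 13, 13 and 10 in normoxia. Library size scaling gave 1 higher in RKO and 6 higher and 19 lower in H460. Limma on RPKM gave 6 higher and 19 lower in H460 at a pseudocount of 0.1, with or without the filter, and 5 higher at a pseudocount of 1. In A549 DESeq2 called 1 member higher, and the fit of all 12 libraries called 1 higher and 1 lower. Calls over all genes were not counted at these alternative settings, so the member counts here and in the next paragraph have no background share. Beyond the fold limits, the scaling and the number of libraries, the causes were not tested.

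With 1 library left out, members called higher ranged from 0 to 3 in RKO and from 0 to 2 in A549, members called lower from 0 to 4 in A549, and the interaction count from 19 to 37. A replicate block gave 1 higher (EIF4E3) and 1 lower (EIF2B3) in A549 and 41 interaction members. The main fits did not treat replicate numbers as pairs. Deviations of same-numbered libraries correlated by 0.23, 0.29 and 0.08 in RKO, A549 and H460, which the main fits did not take into account. For single genes in a line, 2533 alternative values kept their side of the limits, 94 lost a call, 87 gained one and 0 reversed a call.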
